A study of Mus musculus with 6 samples.

Results

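The genes described here encode the Golgi enzymes that build and cap glycans by adding sialic acid, fucose, galactose, N-acetylglucosamine, N-acetylgalactosamine or sulphate. They were chosen by symbol (St3gal, St6gal, St6galnac, St8sia, Fut followed by a number, Galnt, B3gnt, B3galt, B4galt, B4galnt, Gcnt, Chst and Gal3st), which took 93 of the 19533 genes measured by a probe set that names 1 gene. They were compared between 2 groups of C57BL/6 mice, all raised germ-free, that is with no microbiota. The HDAC3ΔIEC group was 3 mice that lack the histone deacetylase gene Hdac3 in intestinal epithelial cells, and the HDAC3FF group was 3 control mice, named for floxed Hdac3 alleles. Live EpCAM-positive epithelial cells of the large intestine had been taken from each mouse, and the RNA of each replicate, taken as 1 mouse, was read on 1 Affymetrix array. The labels name neither the promoter that drives the deletion nor the age or sex of the mice. Values are the deposited log2 signals. A signal depends on its probes as well as on the RNA, so differences are given between mice for the same gene. A rank among all genes, or naming the genes with the highest signal of a list, describes probe signal and not RNA amount.

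Mucin-type O-glycans start with N-acetylgalactosamine (GalNAc) on serine or threonine, added by the polypeptide GalNAc transferases, and are lengthened with galactose and N-acetylglucosamine (GlcNAc). N-glycans and glycolipids are lengthened by partly the same enzymes. Sialic acid, fucose and sulphate are mostly added last, at the chain ends. In the colon these sugars cover the secreted mucus and the apical surface, where bacteria and lectins bind to them, and sulphated and sialylated mucins give the mucus its acidic staining.

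Hdac3, the targeted gene, read 6.58, 6.22 and 6.00 on the HDAC3ΔIEC arrays, against 6.96, 7.36 and 7.04 on the HDAC3FF arrays. All 3 HDAC3ΔIEC values lay under all 3 HDAC3FF values, but Hdac3 missed the threshold (log2 fold change -0.86 ± 0.17, SE; limma adjusted p = 0.0937). Where its probes lie relative to the deleted exons is not given, so the signal may not read the deletion directly. Median signals over all genes lay between 5.30 and 5.35 on the 6 arrays. The mean correlation of an array with the others of its group ran from 0.987 for HDAC3FF replicate 3 to 0.993. Epcam, the surface protein used for the isolation, averaged 10.85 in HDAC3ΔIEC and 10.91 in HDAC3FF cells, and the leukocyte gene Ptprc averaged 4.32 and 4.48 in the same order. Precision is limited by having 3 arrays in a group.

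Of the 93 glycan transferase genes, 6 passed the test, 2 higher and 4 lower in HDAC3ΔIEC than in HDAC3FF cells. St3gal4 and Galnt3 rose, and St3gal5, St6gal1, Gal3st2c and Chst4 fell. They are 6.45% of the group, beside 0.701% of all genes called at a limma adjusted p under 0.05 (137 of 19533), 0.369% higher and 0.333% lower. In RNA from many cells, fewer cells of a type and less RNA per cell cannot be told apart.

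**Figure D1:**
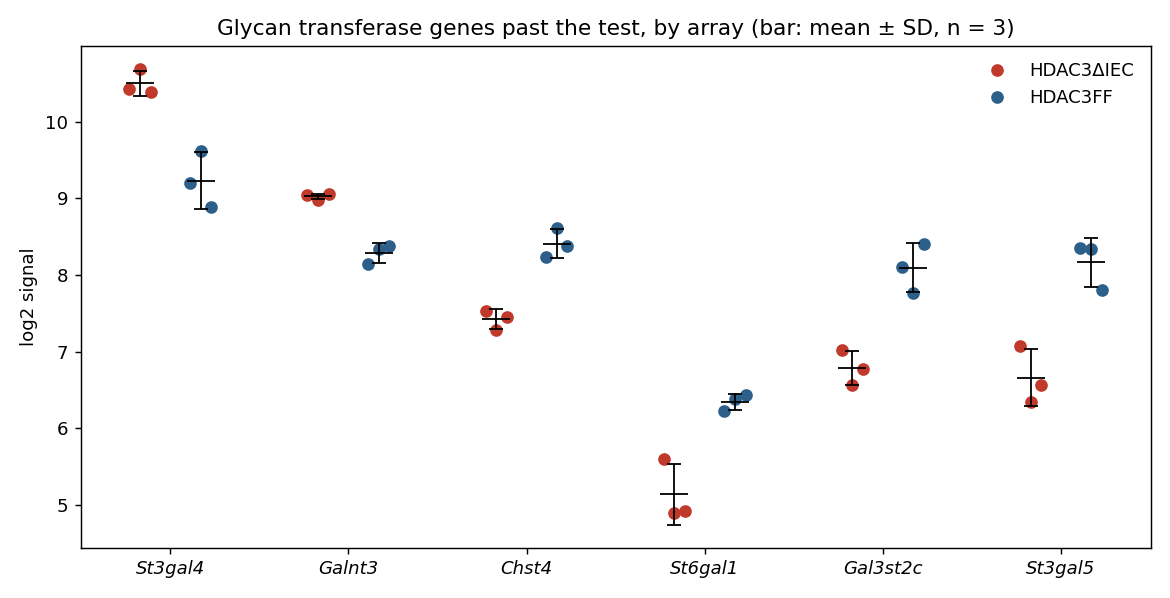
Log2 signal (vertical axis) of the 6 glycan transferase genes that passed the test, by array, with HDAC3ΔIEC in red and HDAC3FF in blue; points are mice and bars are the mean ± SD (n = 3). The groups do not overlap for any of the 6, and HDAC3ΔIEC lies above HDAC3FF for St3gal4 and Galnt3 and below it for the other 4.

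St3gal4 encodes a sialyltransferase that caps terminal galactose with sialic acid in α2,3 linkage on glycoproteins. Its signals were 10.43, 10.69 and 10.39 in HDAC3ΔIEC mice, against 9.20, 9.61 and 8.88 in HDAC3FF mice. The lowest HDAC3ΔIEC mouse lay well above the highest HDAC3FF mouse. The mean was 10.50 ± 0.16 in HDAC3ΔIEC and 9.23 ± 0.37 in HDAC3FF (SD, n = 3 each), a 2.42-fold rise (log2 fold change 1.27 ± 0.19, SE; limma adjusted p = 0.0409).

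St6gal1 encodes the enzyme that adds sialic acid in α2,6 linkage to terminal galactose, mainly of N-glycans, and so acts on ends that St3gal4 can also cap. It fell. Its signals were 5.60, 4.90 and 4.92 in HDAC3ΔIEC mice, against 6.23, 6.38 and 6.43 in HDAC3FF mice. HDAC3ΔIEC replicate 1 was the nearest to the controls and still lay below all of them. The HDAC3ΔIEC mean of 5.14 was under the median signal of all genes, 5.34, where a signal may be mostly background, and the HDAC3FF mean was 6.35. The HDAC3FF level was 2.31 times the HDAC3ΔIEC level (log2 fold change -1.21 ± 0.19, SE; limma adjusted p = 0.0486). St6gal1 is also abundant in B cells. None of 5 B and plasma cell genes passed, and the groups overlapped for each: Cd79a averaged 3.59 in HDAC3ΔIEC and 3.55 in HDAC3FF, Ms4a1 3.42 and 3.58, Jchain 3.35 and 3.34, Cd79b 4.71 and 4.87, and Derl3 5.48 and 5.34 in the same order. Their part in the St6gal1 call was not tested.

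St3gal5 encodes GM3 synthase, which adds sialic acid to lactosylceramide and opens the ganglioside route of glycolipid synthesis. It had the largest fall of the 93 genes. Signals were 7.07, 6.35 and 6.57 in HDAC3ΔIEC mice, against 8.35, 8.34 and 7.80 in HDAC3FF mice, with no overlap. The HDAC3FF level was 2.83 times the HDAC3ΔIEC level (log2 fold change -1.50 ± 0.22, SE; limma adjusted p = 0.0405).

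The other genes that fell act in sulphation. Chst4 encodes a sulphotransferase that places sulphate on GlcNAc and is known for making the sulphated ligands of L-selectin on lymph node venules. It read 7.54, 7.28 and 7.46 in HDAC3ΔIEC mice, against 8.23, 8.61 and 8.38 in HDAC3FF mice, and the HDAC3FF level was 1.98 times the HDAC3ΔIEC level (log2 fold change -0.98 ± 0.12, SE; limma adjusted p = 0.0279). Gal3st2c belongs to a mouse cluster of genes related to human GAL3ST2, whose enzyme sulphates galactose at chain ends. Its signals were 7.02, 6.57 and 6.77 in HDAC3ΔIEC mice, against 8.11, 7.77 and 8.40 in HDAC3FF mice (log2 fold change -1.31 ± 0.18, SE; limma adjusted p = 0.0356). In both genes every HDAC3ΔIEC mouse lay below every HDAC3FF mouse. The neighbouring copies Gal3st2 and Gal3st2b share probe sets with other genes and are not reported here, and RNA of near-identical copies may contribute to the Gal3st2c signal.

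Galnt3, a polypeptide GalNAc transferase that starts O-glycans and is known for protecting the hormone FGF23 from cleavage, was the other gene that rose. It read 9.04, 8.98 and 9.05 in HDAC3ΔIEC mice, against 8.14, 8.34 and 8.38 in HDAC3FF mice. The HDAC3ΔIEC mice lay within a narrow band (SD 0.037) above all controls (SD 0.13), a 1.67-fold rise (log2 fold change 0.74 ± 0.09, SE; limma adjusted p = 0.0280).

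Whether these 6 genes passed depended on single arrays, while their log2 fold changes kept their sign. With each array left out in turn, the log2 fold change ran from 1.10 to 1.46 for St3gal4 and 0.66 to 0.79 for Galnt3. It ran from -1.70 to -1.35 for St3gal5 and -1.44 to -1.09 for St6gal1. For Gal3st2c it ran from -1.47 to -1.15, and for Chst4 from -1.07 to -0.88. Leaving out HDAC3FF replicate 3 kept all 6 and added Galnt5 and St6galnac2, without HDAC3ΔIEC replicate 1 only St3gal5 and St6gal1 passed, without HDAC3FF replicate 2 only Gal3st2c and St3gal4, without HDAC3ΔIEC replicate 3 only B4galt5, and without HDAC3ΔIEC replicate 2 or HDAC3FF replicate 1 none of the 93 passed with limma, where 15 and 19 had an unadjusted p under 0.05. Counts over all genes moved too: 14 (0.0717%) and 13 (0.0666%) were called in those last fits, where 1626 and 1743 had an unadjusted p under 0.05, and 430 (2.2%) without HDAC3FF replicate 3. Over the 6 omissions the limma adjusted p ran from 0.0233 to 0.137 for Chst4, 0.0232 to 0.162 for Gal3st2c, 0.0183 to 0.137 for Galnt3, 0.0233 to 0.182 for St3gal4, 0.0144 to 0.166 for St3gal5 and 0.0149 to 0.203 for St6gal1.

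**Figure D2:**
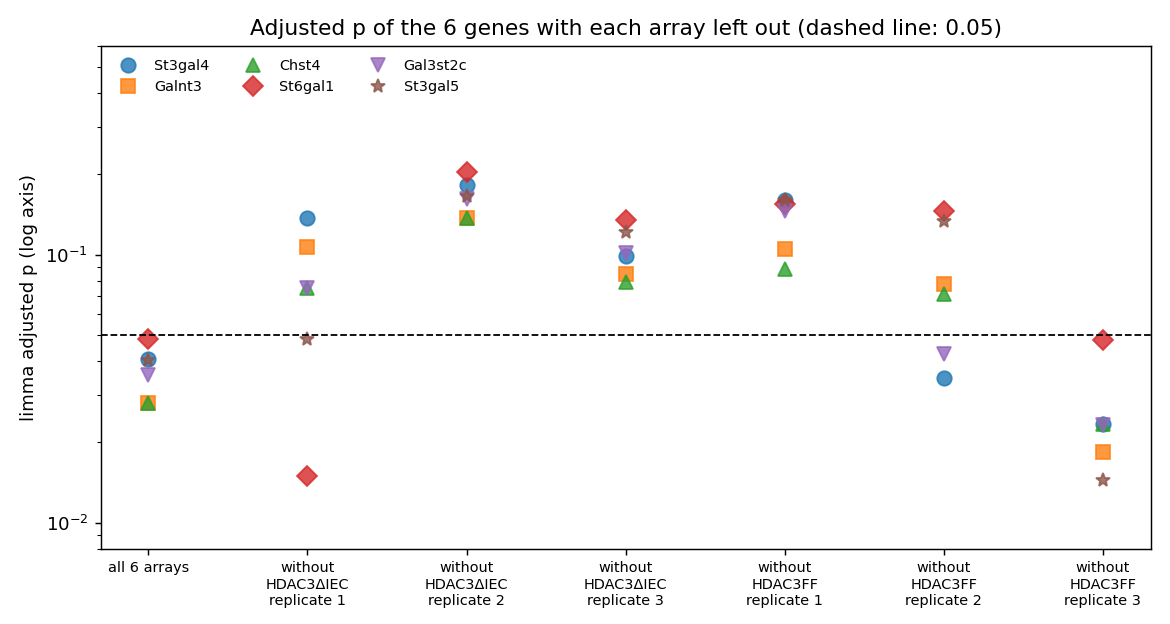
Limma adjusted p (vertical log axis) of the 6 genes with all 6 arrays and with each array left out in turn (horizontal axis); the dashed line marks 0.05. All 6 points lie under the line with all arrays and without HDAC3FF replicate 3, and none lies under it without HDAC3ΔIEC replicate 2 or 3 or HDAC3FF replicate 1.

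Among all 93 genes the differences ran both ways. The log2 fold change was positive for 53 and negative for 40, with a median of 0.03, beside a median of 0.01 over all genes. The median size without sign was 0.13, beside 0.10 in the whole table. Of the 93, 26 had groups that did not overlap (14 higher, 12 lower), or 28%, beside 16.2% of all genes (8.45% higher, 7.7% lower). An unadjusted limma p under 0.05 was reached by 20 of the 93, beside 11.2% of all genes. A change of at least 1 on the log2 scale was measured for 4 (St3gal4, St3gal5, St6gal1 and Gal3st2c), beside 1.02% of all genes. No filter on low values was applied: 53 of the 93 genes had a mean signal above the median of all genes, at 5.34, and 40 lay at or below it, where a signal may be mostly background.

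**Figure D3:**
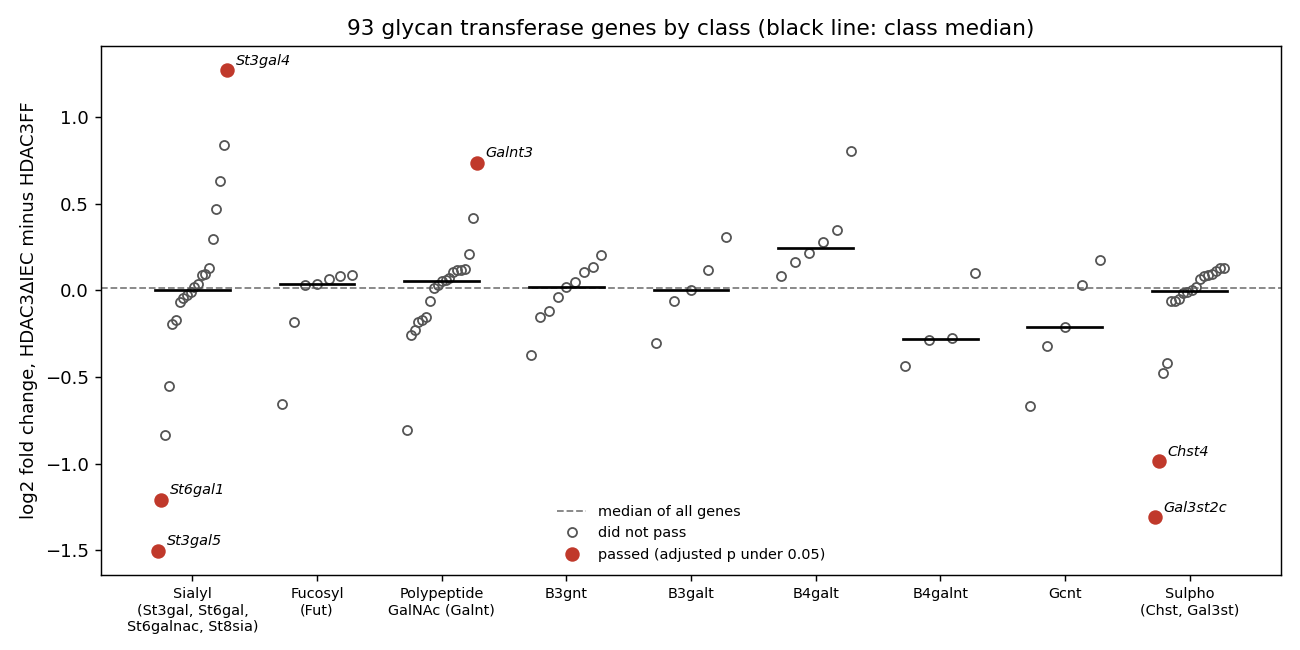
Log2 fold change, HDAC3ΔIEC minus HDAC3FF (vertical axis), of the 93 glycan transferase genes by enzyme class (horizontal axis); red points passed the test, open points did not, black lines are class medians and the dashed line is the median of all genes. The widest scatter is among sialyltransferases, from -1.50 for St3gal5 to 1.27 for St3gal4, and all 6 B4galt genes lie above 0.

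Of 20 sialyltransferase genes, 1 rose, 2 fell and 17 did not pass, with a median log2 fold change of 0.00. Among the 6 St3gal genes, which form α2,3 linkages, 5 had an unadjusted limma p under 0.05, beside 11.2% of all genes. These 5 pointed both ways. Besides St3gal4, positive values were measured for St3gal6 (0.63 ± 0.20, SE), which caps the same kind of galactose end as St3gal4, and St3gal3 (0.84 ± 0.30), which prefers galactose in β1,3 linkage to GlcNAc. St3gal6 read 8.39, 8.43 and 7.93 in HDAC3ΔIEC mice, against 7.80, 7.85 and 7.22 in HDAC3FF mice, and St3gal3 read 8.63, 9.32 and 8.01 in HDAC3ΔIEC mice, against 7.88, 7.93 and 7.63 in HDAC3FF mice. Neither gene's groups overlapped, and neither passed (limma adjusted p = 0.283 for St3gal6 and 0.334 for St3gal3).

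St3gal1, which caps the O-glycan core made of galactose and GalNAc, pointed the other way at -0.84 ± 0.33 (SE) and did not pass (limma adjusted p = 0.408). HDAC3FF replicate 3 read 9.64, against 8.66 and 8.29 in the other HDAC3FF mice, and the groups overlapped. Its dimmer probe set gave -0.38. St6galnac2, which adds sialic acid to the GalNAc that starts an O-glycan, read 7.74, 7.91 and 7.93 in HDAC3ΔIEC mice, against 8.53, 8.58 and 8.12 in HDAC3FF mice. The groups did not overlap, and it did not pass (-0.55 ± 0.14, SE; limma adjusted p = 0.158). It did pass with array weights and without HDAC3FF replicate 3. St6galnac6, which acts on glycolipids and Lewis-type chains, averaged 9.82 ± 0.27 in HDAC3ΔIEC and 9.35 ± 0.28 in HDAC3FF (SD, n = 3 each; limma adjusted p = 0.393). The 6 St8sia genes, which link sialic acids to each other and are best known in neurons, had log2 fold changes from -0.19 to 0.13, and none passed.

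**Figure D4:**
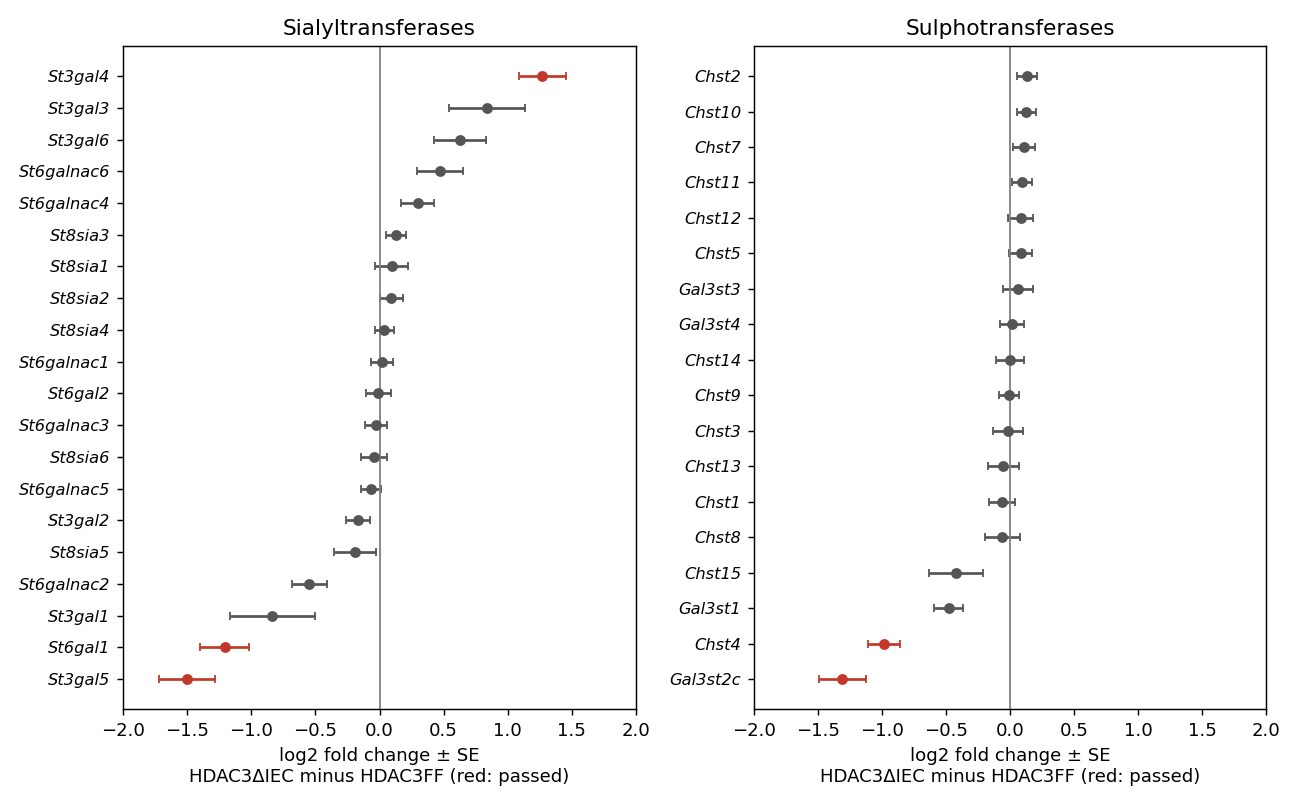
Log2 fold change ± SE, HDAC3ΔIEC minus HDAC3FF (horizontal axis), of the 20 sialyltransferase genes (left) and the 18 sulphotransferase genes (right), in order of fold change; red marks genes that passed. Sialyltransferases spread on both sides of 0, while the sulphotransferases farthest from 0, Gal3st2c, Chst4, Gal3st1 and Chst15, all lie below it.

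Of 18 sulphotransferase genes, 2 fell, 16 did not pass and none rose, and the median was 0.00. After Gal3st2c and Chst4 came Gal3st1, the enzyme that sulphates galactosylceramide to make sulphatide. It read 7.05, 7.03 and 7.21 in HDAC3ΔIEC mice, against 7.37, 7.69 and 7.65 in HDAC3FF mice. All HDAC3ΔIEC values lay below all HDAC3FF values, without a call (-0.48 ± 0.11, SE; limma adjusted p = 0.136). Chst15, which sulphates chondroitin chains, had -0.42 ± 0.21 with overlapping groups (limma adjusted p = 0.540). The other 14 lay between -0.06 and 0.13, and 12 of the 18 sulphotransferase genes had a mean signal at or below the median of all genes.

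Of 19 polypeptide GalNAc transferase genes, Galnt3 rose and 18 did not pass, with a median of 0.05. Galnt5, another enzyme that starts O-glycans, had the smallest p after Galnt3 and the opposite sign. It read 6.35, 6.35 and 6.41 in HDAC3ΔIEC mice, against 6.98, 7.05 and 7.50 in HDAC3FF mice. The groups did not overlap, and Galnt5 missed the threshold (-0.81 ± 0.14, SE; limma adjusted p = 0.0663). It passed without HDAC3FF replicate 3, with array weights and when genes at or below the median signal were left out (limma adjusted p = 0.0222, 0.0267 and 0.0445). Galnt7 and Galnt4, which extend GalNAc addition on peptides that already carry it, averaged 9.58 and 8.85 in HDAC3ΔIEC and 9.73 and 9.02 in HDAC3FF cells. Their log2 fold changes of -0.16 and -0.17 had 95% confidence intervals of -0.39 to 0.08 and -0.49 to 0.14.

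None of the 7 fucosyltransferase genes passed with limma. Beside 11.2% of all genes, 1 of the 7 had an unadjusted p under 0.05. That was Fut4, which adds fucose in α1,3 linkage to make Lewis x structures. It read 7.43, 6.88 and 6.98 in HDAC3ΔIEC mice, against 7.58, 8.21 and 7.47 in HDAC3FF mice, with all HDAC3ΔIEC values below the HDAC3FF values by a narrow margin (log2 fold change -0.66 ± 0.22, SE; limma adjusted p = 0.307). Fut8, which fucosylates the core of N-glycans, read 7.49, 7.68 and 7.73 in HDAC3ΔIEC mice, against 7.71, 7.90 and 7.83 in HDAC3FF mice, with overlap (-0.18 ± 0.10, SE; limma adjusted p = 0.590). Fut2, the enzyme that adds fucose in α1,2 linkage to chain ends of gut epithelium and is known to respond to bacteria, averaged 8.36 ± 0.32 in HDAC3ΔIEC and 8.28 ± 0.21 in HDAC3FF (SD, n = 3 each). Its groups overlapped, and the 95% confidence interval of its log2 fold change was -0.34 to 0.50.

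Among the enzymes that lengthen and branch chains (6 B4galt, 4 B4galnt, 9 B3gnt, 5 Gcnt and 5 B3galt genes) limma made no call. An unadjusted limma p under 0.05 was reached by 5 of these genes, beside 11.2% of all genes. All 6 B4galt genes, which add galactose in β1,4 linkage, had positive log2 fold changes, with a median of 0.25. B4galt5 and B4galt6, both able to make lactosylceramide, had the smallest p. B4galt5 read 8.90, 8.96 and 8.16 in HDAC3ΔIEC mice, against 7.89, 7.97 and 7.75 in HDAC3FF mice, and B4galt6 read 7.97, 7.96 and 8.34 in HDAC3ΔIEC mice, against 7.78, 7.67 and 7.78 in HDAC3FF mice. Neither gene's groups overlapped. The log2 fold changes were 0.80 ± 0.21 and 0.35 ± 0.12 (SE; limma adjusted p = 0.178 and 0.318). Without HDAC3ΔIEC replicate 3, the lowest HDAC3ΔIEC mouse for B4galt5, that gene had 1.06 and passed (limma adjusted p = 0.0406). B4galt1, the general galactosyltransferase, averaged 9.63 ± 0.35 in HDAC3ΔIEC and 9.35 ± 0.18 in HDAC3FF (SD, n = 3 each; limma adjusted p = 0.672).

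Of 4 B4galnt genes, 3 had negative values. B4galnt2, which makes the Sda blood group structure of colon mucin in mice, read 11.40, 11.41 and 11.22 in HDAC3ΔIEC mice, against 11.52, 11.62 and 11.71 in HDAC3FF mice. The groups did not overlap, and the difference was small (-0.28 ± 0.09, SE; limma adjusted p = 0.312). B4galnt1, which acts after GM3 synthase to make the gangliosides GM2 and GD2, read 9.69, 9.54 and 9.40 in HDAC3ΔIEC mice, against 9.66, 9.95 and 9.88 in HDAC3FF mice, with overlap (-0.29 ± 0.12, SE; limma adjusted p = 0.412).

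Of 9 B3gnt genes, which add GlcNAc in β1,3 linkage, 1 had an unadjusted p under 0.05, beside 11.2% of all genes. It was B3gnt5, which opens the lacto-series of glycolipids from lactosylceramide. It read 5.70, 5.70 and 5.59 in HDAC3ΔIEC mice, against 6.03, 6.22 and 5.86 in HDAC3FF mice, without overlap (-0.37 ± 0.11, SE; limma adjusted p = 0.228). B3gnt6, the core 3 synthase of colon mucin O-glycans, read 5.33, 5.61 and 5.51 in HDAC3ΔIEC mice, against 5.26, 5.22 and 5.35 in HDAC3FF mice, with overlap (limma adjusted p = 0.507). B3gnt3, which extends O-glycans, and B3gnt2, which builds chains of repeated galactose and GlcNAc, had log2 fold changes of -0.12 and -0.04 with 95% confidence intervals of -0.57 to 0.33 and -0.28 to 0.21.

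No Gcnt or B3galt gene passed with limma or reached an unadjusted p of 0.05. Gcnt1, which starts the core 2 branch of O-glycans, read 7.74, 7.72 and 6.61 in HDAC3ΔIEC mice, against 7.84, 8.38 and 7.85 in HDAC3FF mice. The groups did not overlap, and HDAC3ΔIEC replicate 3 lay more than 1 below the other mice of its group (-0.67 ± 0.32, SE; limma adjusted p = 0.503). Gcnt4, also a core 2 enzyme, read 5.05, 4.74 and 4.66 in HDAC3ΔIEC mice, against 4.98, 5.37 and 5.06 in HDAC3FF mice (limma adjusted p = 0.476). Gcnt3, the branching enzyme of mucin-secreting tissues, averaged 11.39 ± 0.03 in HDAC3ΔIEC and 11.22 ± 0.31 in HDAC3FF (SD, n = 3 each), with a 95% confidence interval of -0.19 to 0.54 for its log2 fold change. B3galt5, which makes type 1 chains in the gut, was scattered in HDAC3ΔIEC mice, at 7.30, 8.15 and 6.35, against 7.27, 7.57 and 7.15 in HDAC3FF mice. B3galt4, known for ganglioside synthesis, averaged 6.78 ± 0.39 in HDAC3ΔIEC and 6.48 ± 0.35 in HDAC3FF (SD, n = 3 each), with overlap. B3galt2 read 5.49, 5.25 and 5.15 in HDAC3ΔIEC mice, against 5.82, 5.48 and 5.50 in HDAC3FF mice, and B3galt1 read 3.43, 3.51 and 3.55 in HDAC3ΔIEC mice, against 3.33, 3.41 and 3.41 in HDAC3FF mice (limma adjusted p = 0.454 and 0.687).

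Read along the glycolipid route, a grouping made after the values were seen, the genes did not move together. Ugcg, which puts glucose on ceramide, had a log2 fold change of 0.06 ± 0.22 (SE), and the lactosylceramide synthases B4galt5 and B4galt6 had the positive values given above. St3gal5, the next step toward gangliosides, was the only gene of this route named here that passed. B3gnt5, B4galnt1 and the sulphatide enzyme Gal3st1 had negative values and did not pass.

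The promoters of the 6 genes that passed differed in base composition, and 4 are shown because they belong to genes that moved in opposite directions within sialylation and to both sulphotransferase genes that fell. The sequences are from RefSeq on GRCm38.p6 and are 300 bases around an annotated start, most of them upstream; 70 of the 93 genes had at least 1 such window, 93 windows in all. St3gal4 is at chr9:35116815-35117114 on the minus strand, St3gal5 at chr6:72097358-72097657 on the plus strand, Chst4 at chr8:110039285-110039584 on the minus strand and Gal3st2c at chr1:93990255-93990554 on the plus strand. Capitals mark matches on either strand to the GC box GGGCGG, the TATA box TATAAA, the nuclear receptor half-site AGGTCA and the E-box CACGTG, and no 2 matches overlap in these windows.
St3gal4: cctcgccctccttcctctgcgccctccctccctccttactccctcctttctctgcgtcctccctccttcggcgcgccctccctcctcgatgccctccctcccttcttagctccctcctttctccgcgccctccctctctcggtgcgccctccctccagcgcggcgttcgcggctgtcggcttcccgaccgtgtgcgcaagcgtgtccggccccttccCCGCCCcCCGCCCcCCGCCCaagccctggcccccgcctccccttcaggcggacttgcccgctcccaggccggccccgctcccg
St3gal5: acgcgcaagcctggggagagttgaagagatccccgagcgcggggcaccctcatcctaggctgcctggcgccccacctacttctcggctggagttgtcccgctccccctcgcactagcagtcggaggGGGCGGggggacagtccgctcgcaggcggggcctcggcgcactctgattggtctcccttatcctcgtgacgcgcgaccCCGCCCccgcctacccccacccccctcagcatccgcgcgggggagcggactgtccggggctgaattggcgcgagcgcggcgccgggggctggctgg
Chst4: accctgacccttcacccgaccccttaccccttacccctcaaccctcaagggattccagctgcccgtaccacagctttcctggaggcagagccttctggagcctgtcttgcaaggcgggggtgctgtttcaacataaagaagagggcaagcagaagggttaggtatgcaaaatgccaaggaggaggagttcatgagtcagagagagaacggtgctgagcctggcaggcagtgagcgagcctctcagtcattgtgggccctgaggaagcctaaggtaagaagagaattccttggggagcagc
Gal3st2c: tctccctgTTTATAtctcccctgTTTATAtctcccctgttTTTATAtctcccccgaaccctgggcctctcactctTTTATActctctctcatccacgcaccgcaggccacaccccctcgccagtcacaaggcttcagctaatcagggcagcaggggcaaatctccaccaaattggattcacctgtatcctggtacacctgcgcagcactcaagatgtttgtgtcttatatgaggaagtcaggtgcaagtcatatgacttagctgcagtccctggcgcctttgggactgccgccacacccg
The St3gal4 and St3gal5 windows held 31 and 33 CG dinucleotides and 3 and 2 GC boxes, and the Galnt3 window (chr2:66124744-66125043, minus strand) 41 and 3. The windows of Chst4 and Gal3st2c held 5 and 8 CG dinucleotides and no GC box, and that of Gal3st2c held 4 TATA box matches, all in its upstream part. St6gal1 has 3 annotated starts on chromosome 16, with 7, 10 and 6 CG dinucleotides, and the signal does not tell which start was used. The median over all 32851 windows of the RefSeq table was 7 CG dinucleotides, and over the windows of the glycan transferase genes 18. A GC box was in 54.8% of the windows of glycan transferase genes and in 35.7% of all windows, and a TATA box in 3.2% and 13.6% in the same order. The half-site and the E-box were each in 7.5% of the windows of glycan transferase genes, and in 16.3% and 7.2% of all windows. Neither was in the 4 windows shown or in that of Galnt3. Of the 3 St6gal1 windows, the first held 1 GC box and the third 1 half-site. Of the genes that passed, St3gal4 and Galnt3, which rose, and St3gal5, which fell, had the windows with more CG dinucleotides, and Chst4, Gal3st2c and St6gal1, which fell, those with fewer. No relation between base composition and direction was tested.

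None of 75 measured genes of 7 other lists of glycosylation genes passed with limma, beside 0.701% of all genes. An unadjusted limma p under 0.05 was reached by 13, or 17.3%, beside 11.2% of all genes. The median log2 fold change of the 75 genes was -0.01. Of 22 other glycosyltransferases, the smallest p were those of Mgat4b, which branches N-glycans (0.72 ± 0.15, SE; limma adjusted p = 0.0966), and A4gnt, which caps gastric-type mucin O-glycans with GlcNAc. A4gnt read 6.92, 6.57 and 5.57 in HDAC3ΔIEC mice, against 7.83, 8.54 and 7.67 in HDAC3FF mice. The groups did not overlap, and its difference (-1.66 ± 0.37, SE; limma adjusted p = 0.117) did not pass, although farther from 0 than that of any of the 93 genes, with a wide spread among HDAC3ΔIEC mice.

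Genes that supply the sugar donors showed small differences. Of 5 sialic acid supply genes none passed, and the Golgi CMP-sialic acid transporter Slc35a1 and the first enzyme of sialic acid synthesis, Gne, had -0.23 ± 0.12 and -0.27 ± 0.20 (SE; limma adjusted p = 0.534 and 0.723). Of 5 fucose supply genes none passed, with Fcsk, fucose kinase, at -0.20 ± 0.10 and Gmds, which starts GDP-fucose synthesis, at 0.25 ± 0.18 (limma adjusted p = 0.547 and 0.709). Neither list had a gene with an unadjusted p under 0.05. Of 10 genes that supply galactose, GlcNAc and GalNAc, 7 had positive values. An unadjusted limma p under 0.05 was reached by 3, beside 11.2% of all genes. Among these 3 were the UDP-galactose transporter Slc35a2 (0.47 ± 0.14) and Ugp2, which makes UDP-glucose (0.49 ± 0.15), at limma adjusted p of 0.232 and 0.255.

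The sulphate supply genes nearest to the threshold pointed in opposite directions. Papss2, which makes the sulphate donor PAPS, read 11.38, 11.29 and 11.22 in HDAC3ΔIEC mice, against 11.72, 11.92 and 11.56 in HDAC3FF mice. Slc26a2, a sulphate transporter, read 10.91, 10.98 and 11.16 in HDAC3ΔIEC mice, against 10.51, 10.81 and 10.51 in HDAC3FF mice. Neither gene's groups overlapped, and neither of the log2 fold changes of -0.43 ± 0.11 and 0.41 ± 0.12 (SE) passed (limma adjusted p = 0.172 and 0.224). Of 12 hydrolases and sulphatases, Glb1, the lysosomal β-galactosidase, had -0.84 ± 0.17 and Arsb, a lysosomal sulphatase, -0.37 ± 0.13 (limma adjusted p = 0.0990 and 0.308). Of 14 heparan and related sulphotransferases, Hs3st6 and Hs2st1 had the smallest p, at 0.27 ± 0.10 and 0.21 ± 0.12 (limma adjusted p = 0.349 and 0.618).

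**Figure D5:**
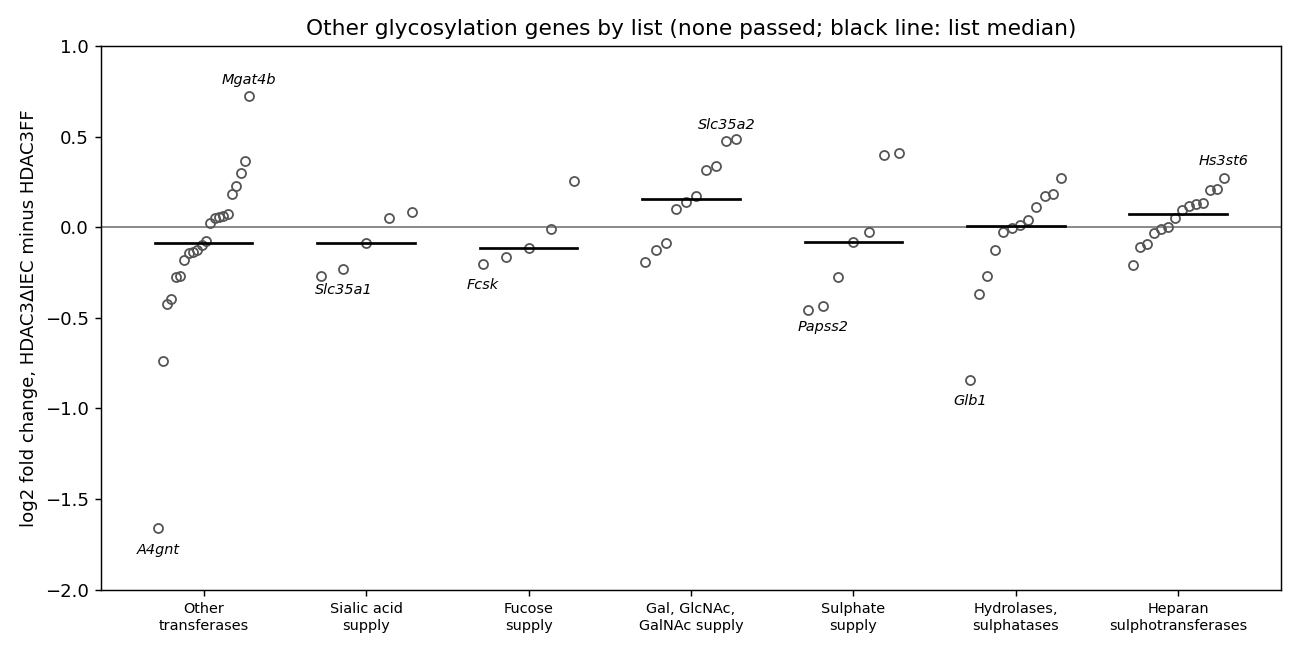
Log2 fold change, HDAC3ΔIEC minus HDAC3FF (vertical axis), of 75 other glycosylation genes in 7 lists (horizontal axis); each open circle is a gene, black lines are list medians, and the gene with the smallest p of each list and any gene past 1 in size are named. None passed the test, and A4gnt at -1.66 is the farthest from 0.

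Markers of other cell types moved with the groups in some lists. The summed signal of 8 enteroendocrine genes was 12.95 to 13.28 (log2) in HDAC3ΔIEC mice, against 11.20 to 12.16 in HDAC3FF mice, without overlap. Of the 8, the hormone genes Insl5 and Pyy passed, both higher, beside 0.701% of all genes called. All 8 log2 fold changes were positive, with a median of 1.87. Groups did not overlap for 6 of the 8, beside 16.2% of all genes. An unadjusted limma p under 0.05 was reached by 7, beside 11.2% of all genes. The part of this list in the calls of St3gal4 and Galnt3 was not tested. The 7 goblet cell genes, from the cells that secrete the mucins these enzymes decorate, summed to 15.20 to 15.28 in HDAC3ΔIEC mice, against 15.20 to 15.42 in HDAC3FF mice. The groups overlapped and none of the 7 passed. Tff3 and Zg16 averaged 12.94 and 12.85 in HDAC3ΔIEC and 12.95 and 12.94 in HDAC3FF cells. The mucin gene Muc2 had a log2 fold change of 0.21 ± 0.12 (SE), with overlapping groups. Retnlb, a secreted antimicrobial protein of goblet cells, averaged 10.93 in HDAC3ΔIEC and 12.08 in HDAC3FF without overlap and missed the threshold (-1.15 ± 0.19, SE; limma adjusted p = 0.0569).

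The 9 epithelial genes, of which Krt8 and Krt19 had the highest signals, summed to 14.85 to 14.99 in HDAC3ΔIEC mice, against 14.56 to 14.80 in HDAC3FF mice, without overlap and with none passing. The 7 surface colonocyte genes, of which Car1 and Ceacam1 had the highest signals, summed to 14.91 to 15.07 in HDAC3ΔIEC mice, against 14.73 to 14.92 in HDAC3FF mice, with a narrow overlap. Slc9a3 alone passed, higher. Groups did not overlap for 5 genes that were higher and for 1, Slc26a3, that was lower, beside 16.2% of all genes. Slc26a3 had -0.44 ± 0.08 (SE) with a limma adjusted p of 0.0819. Krt20 is in both this list and the epithelial list. The 9 myeloid genes, of which Cd14 and C1qa had the highest signals, summed to 8.57 to 8.79 in HDAC3ΔIEC mice, against 8.94 to 9.15 in HDAC3FF mice, without overlap, and C1qa alone passed, lower (-1.71). The list did not move as one: Cd68 had 0.51 ± 0.13 (SE) without overlap and did not pass (limma adjusted p = 0.174), Cd14 had -0.40, and the other 6, with overlapping groups, lay between -0.16 and 0.20. Sums overlapped between the groups, and no gene passed, for crypt stem cells (5 genes), tuft cells (5), T and NK cells (8), B and plasma cells (5), fibroblasts and muscle (7) and endothelial cells (5). The highest sum in any mouse over the lists of lymphoid, stromal and endothelial cells was 8.52. The part of these lists in the calls was not tested.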

How the data were processed

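RNA of 6 replicates, 3 per genotype by their titles and the series' design text, was read on 1 Affymetrix array per replicate. Each replicate is taken as 1 mouse. The deposited values are log2 signals made by the authors; per the submitters' processing notes the tool was Affymetrix Power Tools, with version, background correction and normalization not given in the sources used here. Of 24939 probe sets, 21105 name 1 gene in the platform's annotation, 1254 several and 2580 none. The probe set with the highest mean was used for each of 19533 genes. All 93 glycan transferase genes were matched to RefSeq by Entrez number; 2 (Fut11 and St3gal1) have 2 probe sets. B4galt2, Fut1, Gal3st2 and Gal3st2b were not analysed here.

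The test was limma 3.58.1 on HDAC3ΔIEC minus HDAC3FF (lmFit, eBayes, two-sided, no covariate, 3.26 prior degrees of freedom) in R 4.3.3, adjusted by Benjamini-Hochberg over 19533 genes and called at an adjusted p under 0.05. Confidence intervals use the moderated SE. The design text calls the replicates biological and says no more. The limma p-values rest on the spread between these replicates, moderated with that of all genes. On simulated data with 3 arrays per group, 32.6%, 77.2%, 95% and 99.6% of genes changed by 0.5, 1, 2 and 3 on the log2 scale passed, as did 71 of 193330 unchanged genes. The simulated noise was normal and independent, with each gene's observed within-group SD, and 200 genes were changed in each of 10 runs. These rates hold for that setting and may not hold for the real arrays.

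The genes, lists and tests were chosen with earlier results of these data known. Named are Hdac3, called genes, and the 2 genes of each class with the smallest p and the 2 with the highest mean signal. From 7 glycosylation lists (75 of 84 entries measured), the called or 2 smallest-p genes are named. The marker lists numbered 11 (75 of 80 entries measured). Of the epithelial, goblet, surface colonocyte and myeloid lists, the 2 genes with the highest signal are named. Of the enteroendocrine list, only the 2 called genes are named. Other St3gal and St6galnac genes, Chst15, Ugcg, Muc2, Ptprc, the B and plasma cell genes, Retnlb, Cd68, Epcam, Insl5, Pyy, Slc9a3, Slc26a3 and Krt20 were named after their values were seen. Python 3.11.15 and matplotlib 3.10.9 were used for tables and figures. Alternatives were a replicate block, array weights, an intensity trend, a robust prior, quantile normalization, median centring, dim filters at the 25th percentile and the median, means over probe sets, a correction over every probe set, each array left out and unmoderated statistics.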

Additional observations from a re-analysis of the deposited data

How the results depend on the processing

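The main counts were 2 genes higher and 4 lower of the 93, and 137 of all genes. The 2, 3 and 1 calls among sulphotransferases, sialyltransferases and polypeptide GalNAc transferases became 0, 0 and 0 with a replicate block and with ordinary unmoderated statistics; these counts of higher and lower genes were 0 and 0, with 12 and 0 of all genes called by limma and by unmoderated statistics, where 18 and 15 of the 93 and 1958 and 1858 of all genes had an unadjusted p under 0.05. The labels do not say whether arrays with the same replicate number were paired. Deviations of same-numbered arrays from their group mean correlated at -0.02, -0.07 and -0.20, and no array correlated best with its own number. With 3 arrays in a group, whose deviations sum to 0, these correlations cannot exclude a pairing. With adjustment over all probe sets 1 gene was higher and 2 lower, 0 of them sialyltransferases, and 90 genes were called in all. Array weights called 357 genes in all, 6 of the 93 lower, 4 sialyltransferases (St6galnac2 added), 2 polypeptide GalNAc transferases (Galnt5 added) and 1 other glycosylation gene, Mgat4b. The dim filter at the median, with fewer genes tested, also called 2 polypeptide GalNAc transferases. The 53 genes it kept had a median log2 fold change of -0.059. Each kept gene had the same log2 fold change as in the main fit, so the median moved because 40 genes were left out. St6gal1 missed the threshold with a robust prior and with quantile normalization (limma adjusted p = 0.0520 and 0.0572, in a range from 0.0149 to 0.339 over its alternatives). With arrays left out in turn, 0 to 2 of the 93 were higher and 0 to 6 lower, and of all genes 13 to 430 were called; calls ran from 0 to 2 among sulphotransferases, 0 to 4 among sialyltransferases, 0 to 2 among polypeptide GalNAc transferases, 0 to 1 among B4galt genes and 0 to 1 among the other glycosylation genes (Arsb, without HDAC3FF replicate 3). The median of the 93 ran from 0.00 to 0.03. No named gene that passed changed sign under any alternative. Signs turned for genes with values near 0: B3galt5 had 0.13 and B3gnt3 0.038 with array weights, and with arrays left out B3galt5 ran from -0.51 to 0.40, B3gnt3 from -0.24 to 0.078, B3gnt2 from -0.085 to 0.043 and Fut2 from -0.038 to 0.27. The causes of these shifts were not tested. Signals of dim genes, for which background is not marked, limit what can be seen for the 40 genes at or below the median of all genes.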
